A study of Sus scrofa with 6 samples.

Results

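The 10 genes described here belong to the platelet-derived growth factor (PDGF), vascular endothelial growth factor (VEGF) and hypoxia pathways. They are the ligands PDGFC, VEGFA, VEGFC and ANGPT1, the receptors PDGFRA and PDGFRB, the hypoxia-inducible transcription factors HIF1A and EPAS1, and the secreted hypoxia targets STC1 and ADM. They are the rows of the deposited expression table whose gene name is one of these symbols, 10 of 18007 genes. The 10 were chosen from their values in porcine embryonic fibroblasts (PEFs) and porcine induced pluripotent stem cells (piPSCs) in this same table, so their differences between the groups are a description and carry no test.

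The study compared 3 PEF lines (PEF5, PEF7 and PEF8) with 1 piPSC line derived from each (piPSC5, piPSC7 and piPSC8), to follow how fibroblasts are reprogrammed. The PEFs were grown from ear tips of fetuses at embryonic day 90. The fetuses were offspring of a Longwhite boar, a breed the paper names Large White, crossed with a Meishan sow. GEO's labels call the PEFs somatic cells. The piPSCs carry lentiviral Oct4, Sox2, Klf4 and c-Myc under a doxycycline-inducible promoter, were kept on mouse feeder cells, depend on doxycycline, and are labelled as pluripotent cells derived from PEFs. Each line gave 1 poly-A RNA library, so the lines are the replicates and no line has repeats. The treatment text that names the reprogramming factors is attached to the fibroblast libraries as well. The oxygen tension of the cultures is not given in the sources used here.

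Values are FPKM, fragments per kilobase of gene length and per 1000000 fragments of the library. The totals behind them ran from 15146576 to 17836510 fragments in the PEF libraries and from 11010629 to 15050204 in the piPSC libraries. Differences are given as log2(FPKM + 1) in piPSCs minus PEFs, a scale that understates the change of genes with low values. Group means carry the SD over 3 lines.

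As background, PDGF ligands bind receptor tyrosine kinases that mark connective tissue cells and drive their growth and migration, while VEGF ligands and angiopoietins are released by many cell types and act on receptors of blood and lymphatic endothelium. HIF1A and EPAS1 encode the oxygen-sensitive subunits of the hypoxia-inducible factors. With oxygen present, prolyl hydroxylases of the EGLN family mark these proteins for destruction through VHL, so the activity of the factors is set largely at the protein level, which RNA does not show.

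The library pairs differ in a Y-linked gene, although the study describes its PEF lines as male. DDX3Y had 3439 fragments in PEF8 and 4207 in piPSC8, and 0 in PEF5, PEF7, piPSC5 and piPSC7. Lines 5 and 7 thus go against that description in this gene and line 8 does not, and values of the 10 genes are given below also for lines 5 and 7 alone.

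Each of the 10 genes had a lower mean in piPSCs than in PEFs. The log2 difference ran from -6.26 for STC1 to -1.16 for PDGFC, with a median of -4.07. In 9 of the 10, every piPSC library lay under every PEF library, and the groups overlapped for PDGFC. Among the 12428 genes whose mean reached 0.5 FPKM, 26.8% had all piPSC libraries under all PEF libraries. Since the 10 were chosen on this contrast, nothing is read from that count. The 10 genes together took 0.414%, 0.392% and 0.482% of the fragments of PEF5, PEF7 and PEF8, and 0.0371%, 0.0432% and 0.036% of those of piPSC5, piPSC7 and piPSC8. All 10 passed the filter on low values, but VEGFC, STC1 and ANGPT1 did so through the PEF libraries, as their piPSC means were under 0.5 FPKM. In RNA from whole cultures, fewer cells of a type and less RNA per cell cannot be told apart.

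**Figure D1:**
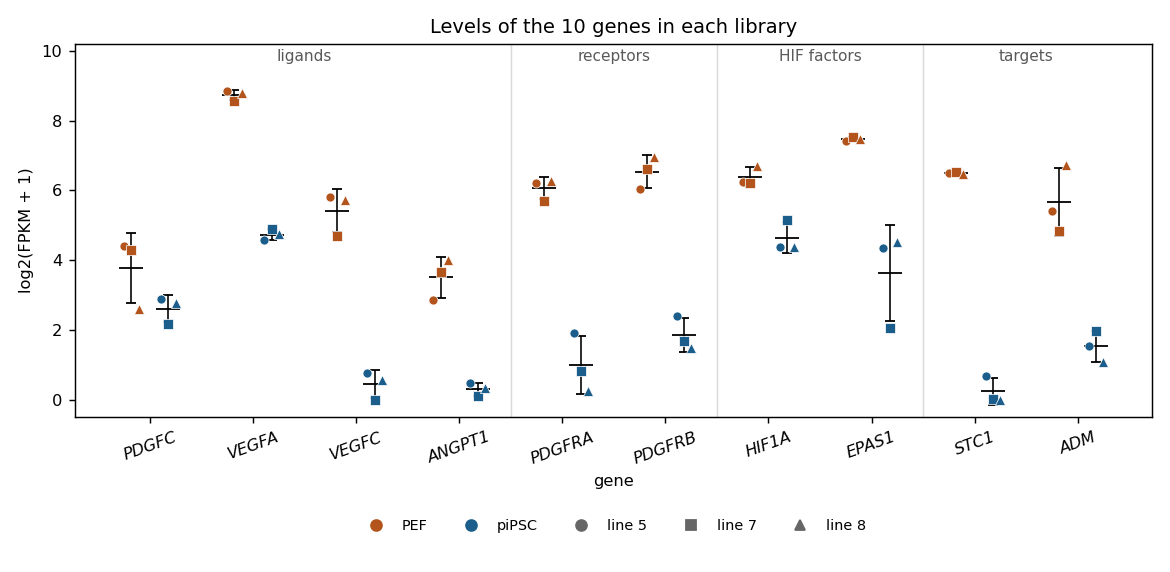
Levels of the 10 genes as log2(FPKM + 1), with PEF libraries in orange, piPSC libraries in blue and a marker shape for each line. Black bars show the mean and SD of 3 lines, and PDGFC is the gene whose groups overlap.

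VEGFA, the main ligand of blood vessel growth, was the most abundant of the 10 genes in the PEFs. It is listed as ENSSSCG00000001695 on chromosome 7 of Sscrofa11.1, from 38746055 to 38762342 on the plus strand. VEGFA measured 457, 381 and 446 FPKM in the PEFs of lines 5, 7 and 8, and 22.9, 28.5 and 25.6 FPKM in their piPSCs. All PEF libraries were high and close together, all piPSC libraries were far lower and equally close, and the groups did not overlap. The means were 428 ± 41.2 FPKM (SD, n = 3) in PEFs and 25.7 ± 2.8 in piPSCs, a ratio of 16.7, and the log2 difference was -4.01. Within each line the log2 difference was -4.26, -3.69 and -4.07 for lines 5, 7 and 8. Although lower, VEGFA remained well expressed in piPSCs, with at least 1036 fragments per library and a level above that of 86.1% to 89.2% of the genes listed. In the PEF libraries it lay above 99.3% to 99.5% of them.

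Because several of the 10 genes are textbook targets of the hypoxia-inducible factors, the 250 bases before the start of each gene were searched for the core of the hypoxia response element, spelled ACGTG or GCGTG, on both strands. The start was the more upstream of those in the deposited table and in RefSeq, on Sscrofa11.1. For PDGFRA, ANGPT1 and VEGFC the RefSeq start used lay 11036, 7094 and 3092 bases upstream of the deposited one. ACGTG is also held by CACGTG, which other factors bind. Of the 10 promoters, 4 held a match (40%), those of VEGFA, HIF1A, PDGFRB and ADM, against 42.4% of 17989 promoters read the same way. The share among the 10 was thus close to that over all genes. The promoter of VEGFA lies at chr7:38745805-38746054 on the plus strand and holds 2 matches near each other, given in capitals. RefSeq marks its VEGFA model as incomplete at the 5′ end, and the start of the deposited table was the more upstream and was used.
VEGFA: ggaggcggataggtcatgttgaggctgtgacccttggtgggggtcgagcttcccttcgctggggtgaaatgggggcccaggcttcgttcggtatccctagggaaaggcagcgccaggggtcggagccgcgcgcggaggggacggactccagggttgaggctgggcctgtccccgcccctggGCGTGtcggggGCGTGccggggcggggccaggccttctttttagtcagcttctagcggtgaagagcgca
A match is a stretch of letters and not a measured binding site.

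VEGFC, the ligand of lymphatic vessel growth, was at a moderate level in PEFs and at a few fragments in piPSCs. VEGFC (ENSSSCG00000015770, chromosome 15 from 39039311 to 39133142, minus strand) measured 55.6, 25.1 and 51.9 FPKM in the PEFs of lines 5, 7 and 8, and 0.705, 0 and 0.482 FPKM in their piPSCs. PEF7 held less than the other PEF lines, and every piPSC library was far under it. The piPSC values rest on 24, 0 and 12 fragments, and the count of 0 in piPSC7 allows up to 3 fragments, or 0.112 FPKM. The means were 44.2 ± 16.7 FPKM in PEFs and 0.396 ± 0.36 in piPSCs, with a log2 difference of -4.97. VEGFA exceeded VEGFC by 8.22, 15.2 and 8.59 times in PEF5, PEF7 and PEF8, and by 32.5 and 53.2 times in piPSC5 and piPSC8.

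PDGFC, a PDGF ligand that is secreted as a latent dimer, was the gene with the smallest mean difference. PDGFC (ENSSSCG00000024960, chromosome 8 from 45578002 to 45808789, minus strand) measured 20.4, 18.4 and 5.07 FPKM in the PEFs of lines 5, 7 and 8, and 6.4, 3.46 and 5.87 FPKM in their piPSCs. PEF8 was low, under both piPSC5 and piPSC8, so the groups overlapped. The means were 14.6 ± 8.33 FPKM in PEFs and 5.24 ± 1.57 in piPSCs, and the log2 difference was -1.16. By line it was -1.53 in line 5, -2.12 in line 7 and 0.18 in line 8. The direction in line 8 depended on scaling, as the difference became 0.06 with libraries rescaled by their median ratio and -0.10 when each was given an equal sum of FPKM. Without line 8, the log2 difference of PDGFC was -1.83.

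ANGPT1, a ligand of the endothelial receptor TEK that is made by perivascular and stromal cells, had the lowest mean of the 10 genes in PEFs, although PDGFC was lower in PEF8. ANGPT1 (ENSSSCG00000006035, chromosome 4 from 29932297 to 30233960, plus strand) measured 6.19, 11.7 and 14.9 FPKM in the PEFs of lines 5, 7 and 8. Their piPSCs measured 0.386, 0.074 and 0.256 FPKM, which rest on 33, 5 and 16 fragments. The groups did not overlap, and the means were 10.9 ± 4.41 FPKM in PEFs and 0.238 ± 0.157 in piPSCs. The log2 difference was -3.2.

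**Figure D2:**
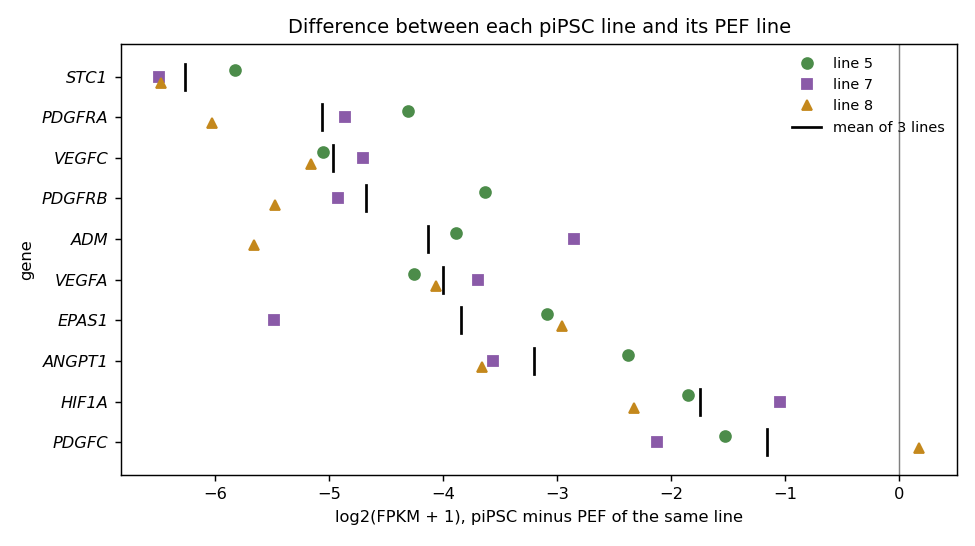
Difference in log2(FPKM + 1) between each piPSC line and the PEF line it was made from, for lines 5, 7 and 8, with the mean of the 3 lines as a black bar and 0 as a grey line. PDGFC in line 8, at 0.18, is the point above 0 as deposited, and lies at -0.10 after rescaling to equal sums.

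The PDGF receptors PDGFRA and PDGFRB, tyrosine kinases typical of fibroblasts and mural cells, were among the genes with the larger differences. PDGFRA (ENSSSCG00000008841, chromosome 8 from 40977604 to 41018506, plus strand) measured 73.1, 50.7 and 76.9 FPKM in the PEFs of lines 5, 7 and 8, and 2.75, 0.772 and 0.195 FPKM in their piPSCs. The PEF libraries were alike, while the piPSC libraries were spread over a wide range at the low end, with 135, 30 and 7 fragments for lines 5, 7 and 8. The means were 66.9 ± 14.2 FPKM in PEFs and 1.24 ± 1.34 in piPSCs, and the log2 difference was -5.07. By line it was -4.31, -4.87 and -6.03 for lines 5, 7 and 8. RefSeq places the start of PDGFRA 11036 bases upstream of the start in the deposited table, whose gene length is 3267 bases.

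PDGFRB (ENSSSCG00000022741, chromosome 2 from 151155754 to 151192816, minus strand) showed the same order of lines among the piPSCs. It measured 64.4, 96.5 and 124 FPKM in the PEFs of lines 5, 7 and 8, and 4.26, 2.21 and 1.8 FPKM in their piPSCs. The groups did not overlap, with means of 94.9 ± 29.7 FPKM in PEFs and 2.76 ± 1.32 in piPSCs, and a log2 difference of -4.68. By line the difference of PDGFRB was -3.64, -4.92 and -5.48. Relative to PDGFRA, the level of PDGFRB was 0.881, 1.9 and 1.61 times as high in PEF5, PEF7 and PEF8, and 1.55, 2.87 and 9.27 times in piPSC5, piPSC7 and piPSC8. The ratios in piPSC7 and piPSC8 rest on only 30 and 7 fragments of PDGFRA, and a change of ratio was not tested. The promoter of PDGFRB, at chr2:151192819-151193068 on the minus strand, is shown because it holds a single match to the hypoxia core, in capitals.
PDGFRB: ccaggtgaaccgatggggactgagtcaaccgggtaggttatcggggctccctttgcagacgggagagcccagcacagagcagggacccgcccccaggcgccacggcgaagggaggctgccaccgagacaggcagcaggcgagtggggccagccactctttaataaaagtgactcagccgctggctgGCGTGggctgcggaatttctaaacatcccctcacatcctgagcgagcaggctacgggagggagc
No match was found in the promoter of PDGFRA, which says only that these letters are not in the window.

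HIF1A, the widely expressed oxygen-sensitive subunit, was the member that kept the highest share of its PEF level apart from PDGFC. HIF1A (ENSSSCG00000005096, chromosome 1 from 190625293 to 190678472, plus strand) measured 74, 72.6 and 104 FPKM in the PEFs of lines 5, 7 and 8, and 19.7, 34.6 and 19.9 FPKM in their piPSCs. PEF8 was the highest library and piPSC7 the highest of the piPSCs, and the groups did not overlap. The means were 83.5 ± 17.7 FPKM in PEFs and 24.7 ± 8.51 in piPSCs, a ratio of 3.38, with a log2 difference of -1.74. In piPSCs HIF1A still had between 1784 and 3341 fragments per library. HIF1A overlaps SNAPC1 on the same strand in the table, which had between 1.54 and 8.86 FPKM. How fragments in the shared stretch were assigned is not given in the sources used here.

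EPAS1, which encodes HIF-2α and is best known from endothelium and oxygen-sensing cells, was more abundant than HIF1A in every PEF library. EPAS1 (ENSSSCG00000008443, chromosome 3 from 94167752 to 94253662, minus strand) measured 171, 185 and 176 FPKM in the PEFs of lines 5, 7 and 8, and 19.2, 3.14 and 21.8 FPKM in their piPSCs. The PEF libraries were close together, whereas piPSC7 lay well under the other piPSC lines. The means were 178 ± 6.93 FPKM in PEFs and 14.7 ± 10.1 in piPSCs, and the log2 difference was -3.84. By line it was -3.09 in line 5, -5.49 in line 7 and -2.96 in line 8.

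Setting the level of EPAS1 over that of HIF1A in the same library gave ratios of 2.31, 2.55 and 1.7 for the PEFs of lines 5, 7 and 8. The piPSCs gave 0.975, 0.091 and 1.1. Thus EPAS1 was the more abundant of the pair in the 3 PEF libraries, the pair was near balance in piPSC5 and piPSC8, and HIF1A prevailed in piPSC7. Both values are per length, and the ratio depends on the gene models of the deposited table. The promoter of HIF1A, at chr1:190625043-190625292 on the plus strand, is shown because it holds a match to each spelling of the hypoxia core, in capitals.
HIF1A: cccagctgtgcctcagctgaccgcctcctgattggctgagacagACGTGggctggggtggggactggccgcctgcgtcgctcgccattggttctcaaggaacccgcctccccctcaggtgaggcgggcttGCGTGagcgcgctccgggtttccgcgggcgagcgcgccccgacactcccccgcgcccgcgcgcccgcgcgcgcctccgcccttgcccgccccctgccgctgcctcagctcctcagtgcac
The promoter of EPAS1 held no match.

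STC1, a secreted glycoprotein and textbook hypoxia target, showed the largest log2 difference of the 10 genes. STC1 (ENSSSCG00000009642, chromosome 14 from 7948655 to 7961629, minus strand) measured 89.7, 90.9 and 87.9 FPKM in the PEFs of lines 5, 7 and 8, and 0.602, 0.0181 and 0 FPKM in their piPSCs. The PEF libraries were nearly equal, with an SD of 1.47 around a mean of 89.5 FPKM. Between 6177 and 7422 fragments stood behind each of them, against 42, 1 and 0 in piPSC5, piPSC7 and piPSC8. The count of 0 in piPSC8 allows up to 3 fragments, or 0.0588 FPKM, a limit that covers counting error only. The log2 difference of STC1 was -6.26.

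ADM, which encodes the vasodilator peptide adrenomedullin, had the largest SD among the PEF lines in FPKM. ADM (ENSSSCG00000013408, chromosome 2 from 49228610 to 49231446, minus strand) measured 41.7, 27.3 and 105 FPKM in the PEFs of lines 5, 7 and 8, and 1.87, 2.92 and 1.1 FPKM in their piPSCs. PEF8 was high and piPSC8 was the lowest of the piPSCs, so line 8 had the widest gap, with a log2 difference of -5.66 against -3.89 in line 5 and -2.86 in line 7. The means were 58.1 ± 41.5 FPKM in PEFs and 1.96 ± 0.911 in piPSCs, with a log2 difference of -4.14 over the 3 lines and -3.37 without line 8. The promoter of ADM, at chr2:49231522-49231771 on the minus strand, is shown because ADM is a hypoxia target and holds 1 match on the opposite strand, in capitals.
ADM: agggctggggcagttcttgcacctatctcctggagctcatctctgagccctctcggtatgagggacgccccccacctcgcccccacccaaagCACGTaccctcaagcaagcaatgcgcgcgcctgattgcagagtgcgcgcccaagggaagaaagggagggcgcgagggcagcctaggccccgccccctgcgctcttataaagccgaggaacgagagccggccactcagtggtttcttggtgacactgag
The promoter of STC1 held no match.

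For lines 5 and 7 alone, all 10 genes were again lower in piPSCs, with log2 differences between -6.16 for STC1 and -1.45 for HIF1A. VEGFA was at -3.98, VEGFC at -4.88 and ANGPT1 at -2.97 in those lines. For the receptors the values were -4.59 for PDGFRA and -4.28 for PDGFRB, and EPAS1 stood at -4.29.

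The other genes of these pathways were tested with limma over all 12428 genes, and genes past both a 2-fold change and an adjusted p of 0.05 were called. Of 95 other pathway genes tested, 34 were called lower and 5 higher in piPSCs, against 16.7% called lower and 20.2% called higher among all genes tested. The median log2 fold change was -0.82 over the 95 genes and 0.20 over all genes tested. For lines 5 and 7 alone, 37 of 96 tested were called lower and 6 higher, beside 15.8% and 20.1% of all genes. The balance over all genes depends on scaling, with 2505 called higher and 2070 lower as deposited, 1879 and 2511 after rescaling to the median ratio, and 1986 and 2815 after rescaling to equal sums. These rescalings moved the median of all genes by -0.21 and -0.26, and the pathway genes called lower then numbered 40 and 43. The lists were chosen with earlier results of these data known and are described by their counts only.

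**Figure D3:**
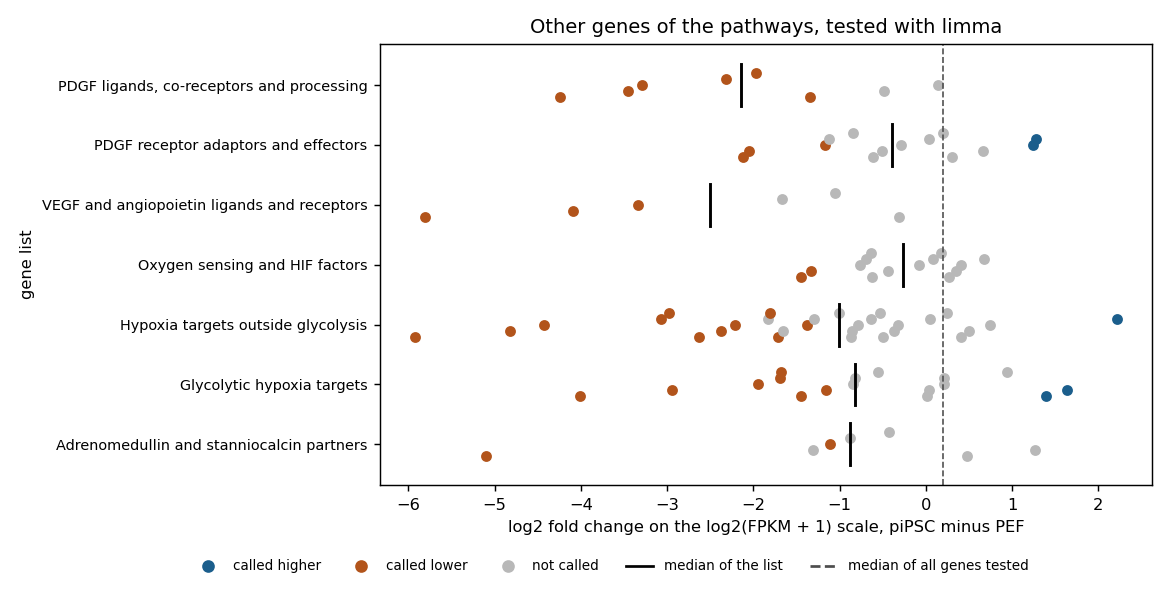
Log2 fold change on the log2(FPKM + 1) scale of the other pathway genes that were tested, by list, with genes called higher in blue, called lower in orange and not called in grey. Black bars are list medians, and the dashed line at 0.20 is the median of all genes tested.

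Among the ligands and partners of the PDGF receptors, 6 of 8 genes tested were called lower. PDGFA fell by 1.96 on the log2 scale (SE 0.20, adjusted p = 0.000729), from 3.16 ± 0.281 to 0.0659 ± 0.0576 FPKM. It passed the filter on low values through the PEF libraries, as its piPSC values rest on 8, 0 and 5 fragments. PDGFD was at 7.22 ± 4.51 and 7.46 ± 2.12 FPKM and did not pass (adjusted p = 0.772). PDGFB was too low to be tested, with 49 fragments in PEF8 and 31 in piPSC5 as its highest counts. The summed level of PDGFA, PDGFB, PDGFC and PDGFD was 29, 25.5 and 21.9 FPKM in PEF5, PEF7 and PEF8, and 17.1, 9.43 and 13.1 in piPSC5, piPSC7 and piPSC8. PDGFC was thus the main ligand of PEF5 and PEF7, and PDGFD exceeded it in PEF8 and in the 3 piPSC libraries. The endocytic receptor LRP1 was at -4.24 (adjusted p = 0.00118), the matrix protein SPARC, which binds PDGF, at -3.45 (adjusted p = 0.000357) and the protease PLAU at -3.29 (adjusted p = 0.0094). PDGFRL, a receptor-like gene without a kinase, fell by 1.35 (adjusted p = 0.0192), but the call was lost without PEF7 (log2 fold change -1.09) or piPSC5 (-1.27) and for lines 5 and 7 alone (-1.21), and its adjusted p ran from 0.0105 to 0.0712 over the alternatives.

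Downstream of PDGFRA and PDGFRB, 9 of 14 adaptors and effectors did not pass, 3 were called lower and 2 higher. The lower genes were the adaptors SHC1 at -2.05 (adjusted p = 0.000246), NCK2 at -2.12 (adjusted p = 0.0104) and NCK1 at -1.17 (adjusted p = 0.00604). The higher genes were the ubiquitin ligase CBL at 1.28 (adjusted p = 0.00456) and the docking protein GAB1 at 1.24 (adjusted p = 0.0138), each with all piPSC libraries above all PEF libraries. NCK1, at -0.89, did not reach 2-fold in lines 5 and 7 alone, nor did GAB1 after the median ratio rescaling, at 0.99.

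Of the VEGF and angiopoietin genes beside VEGFA, VEGFC and ANGPT1, 6 of 13 could be tested and 3 were called lower. These were PGF, another ligand of FLT1, which fell by 4.09 (adjusted p = 0.00632), the receptor FLT1, which fell by 3.34 (adjusted p = 0.00457), and ANGPTL2, which fell by 5.81 (adjusted p = 0.000604). VEGFB stood at 13.1 ± 5.11 FPKM in PEFs and 10.1 ± 2.44 in piPSCs and did not pass (adjusted p = 0.415). VEGFA made up 77%, 83.2% and 75.9% of the summed FPKM of the VEGF ligands and PGF in PEF5, PEF7 and PEF8, and 58.9%, 59.6% and 76.7% in piPSC5, piPSC7 and piPSC8. FLT1, a receptor of VEGFA, had 509, 964 and 2909 fragments in PEF5, PEF7 and PEF8 and 22, 2 and 0 in their piPSCs. FLT1 thus passed the filter on low values through the PEF libraries, with a piPSC mean of 0.0762 FPKM. The receptors KDR and FLT4 were near 0, as KDR had 0 fragments in 5 libraries and 1 in piPSC5, and FLT4 had 8, 3 and 3 fragments in the PEFs and 0 in the piPSCs. TEK, the receptor of ANGPT1, had 0 fragments in the PEFs and in piPSC8, 26 in piPSC5 and 82 in piPSC7. The co-receptor NRP1 was at 9.39 ± 9.69 FPKM in PEFs and 1.97 ± 2.2 in piPSCs, differed by -1.41, 0.45 and -4.02 in lines 5, 7 and 8, and did not pass (adjusted p = 0.108). The co-receptor NRP2 had 23, 12.4 and 5.72 FPKM in PEF5, PEF7 and PEF8 and 2.2, 1.02 and 36.5 in piPSC5, piPSC7 and piPSC8, and did not pass (adjusted p = 0.45). NRP2 was called lower without piPSC8 (-2.35) and for lines 5 and 7 alone (-2.82), with adjusted p from 0.00696 to 0.87 over the alternatives.

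**Figure D4:**
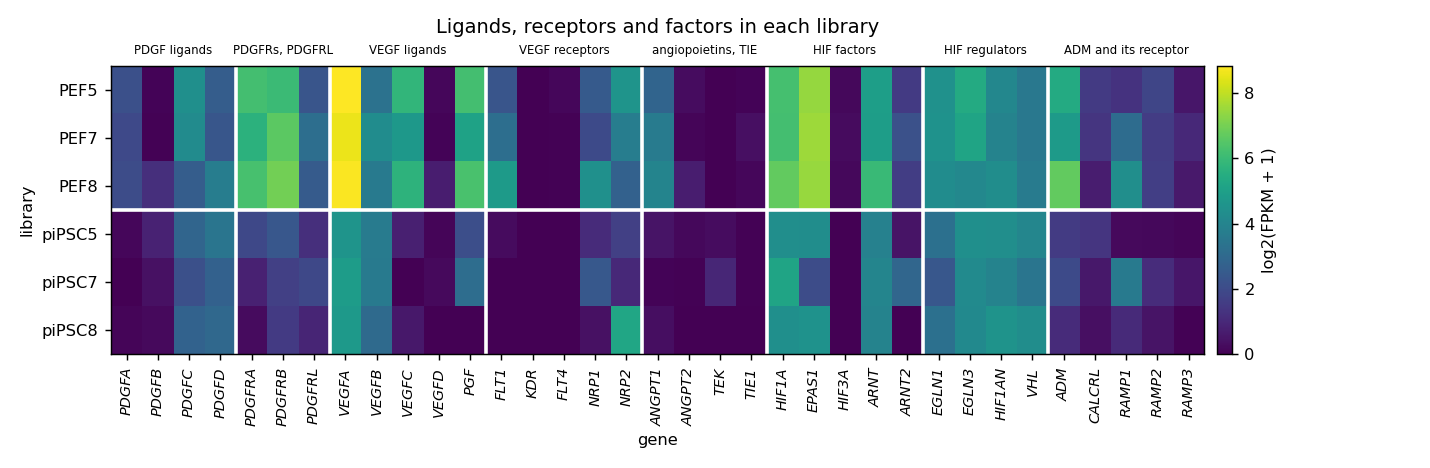
Level of ligands, receptors, hypoxia-inducible factors and their regulators as log2(FPKM + 1), by colour, in the 6 libraries (rows) and for each gene (columns), grouped by role. VEGFA is the brightest column in the PEFs, while KDR, FLT4, TEK and TIE1 are dark throughout.

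Of 14 tested partners and regulators of HIF1A and EPAS1, 12 did not pass and 2 were called lower. The number called lower was 4 after rescaling to equal sums, 3 after rescaling to the median ratio and 1 for lines 5 and 7 alone. EGLN1, the main oxygen-sensing prolyl hydroxylase, fell by 1.45 (SE 0.27, adjusted p = 0.00517), from 20.5 ± 1.48 to 7.16 ± 2.52 FPKM. ARNT, the constant partner subunit of HIF1A and EPAS1, fell by 1.34 (adjusted p = 0.0109) and was under 2-fold without PEF8 (-0.99) and for lines 5 and 7 alone (-0.98). VHL (adjusted p = 0.264), HIF1AN (adjusted p = 0.5) and EGLN3 (adjusted p = 0.157) did not pass, although EGLN3 reached -1.01 and was called lower without PEF8, with adjusted p from 0.00785 to 0.393 over the alternatives. ARNT2 stood at 6.55 FPKM in piPSC7 and at 0.388 and 0.013 in piPSC5 and piPSC8, and was called lower only when piPSC7 was left out (log2 fold change -1.52), with adjusted p from 0.0145 to 0.94 over the alternatives. HIF3A had between 4 and 7 fragments in the PEFs and 0 in the piPSCs.

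Other textbook targets of HIF1A and EPAS1 included genes called in either direction. Outside glycolysis, 11 of 29 tested were called lower, 1 higher (2 without piPSC7) and 17 did not pass. The genes called lower included NDRG1 at -4.82 (adjusted p = 0.000266) and the collagen prolyl hydroxylase P4HA2 at -4.42 (adjusted p = 0.000266), and the called increase was that of MXI1 at 2.22 (adjusted p = 0.00276). Among glycolytic targets, 7 of 17 tested were called lower and 2 higher. The lactate exporter SLC16A3 fell from 75.7 ± 8.24 to 4.09 ± 2.39 FPKM (adjusted p = 0.000343). On the log2 scale the glycolytic enzyme ALDOC was at -2.94 (adjusted p = 0.000504) and LDHA at -1.95 (adjusted p = 0.00111). The kinases PDK1 at 1.39 (adjusted p = 0.00304) and PDK3 at 1.64 (adjusted p = 0.0223) were higher, and PDK3 lost its call without PEF7 (1.68), PEF8 (1.49) or piPSC5 (1.58), with adjusted p from 0.00411 to 0.0688 over the alternatives. In 72.2% of 18 promoters of glycolytic targets and 43.8% of 32 promoters of the other targets the hypoxia core was found, against 42.4% of all promoters. The median GC content was 68.4% in the former and 61.2% in the latter, against 56.4% over all promoters.

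Of the genes that act with ADM and STC1, 2 of 7 tested were called lower, and for lines 5 and 7 alone 1 was called higher. The scavenger receptor ACKR3, which binds adrenomedullin, fell by 5.10 (adjusted p = 0.00514), and RAMP2, a subunit of the adrenomedullin receptor, fell by 1.11 (adjusted p = 0.021). RAMP2 lost its call without PEF5 (-1.03), PEF7 (-1.16) or piPSC5 (-0.90) and for lines 5 and 7 alone (-1.06), with adjusted p from 0.00822 to 0.0798 over the alternatives. CALCRL, the receptor itself, was at 1.35 ± 0.621 FPKM in PEFs and 0.787 ± 0.689 in piPSCs and did not pass (adjusted p = 0.351), nor did PAM, the enzyme that amidates adrenomedullin (adjusted p = 0.26), RAMP1 (adjusted p = 0.336) or STC2 (adjusted p = 0.285). STC2 was called lower without piPSC8 (-1.59) and for lines 5 and 7 alone (-1.76), with adjusted p from 0.0197 to 0.716 over the alternatives. RAMP3 was too low to be tested, with at most 81 fragments.

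The genes whose profile over the 6 libraries was most like that of a member were found among the tested genes by the root mean square difference of centred log2(FPKM + 1). For PDGFRA these were TBX2 (0.21), ITGA5 (0.27) and HAPLN4 (0.30), and for PDGFRB they were SQOR (0.16), PMP22 (0.21) and MXRA5 (0.21). For VEGFA they were FAM213A (0.22), CLCF1 (0.23) and RELB (0.24). For HIF1A they were TMEM54 (0.10), HEG1 (0.13) and RHOC (0.15). This scale understates changes at low values, so a small difference does not mean an equal fold change. TMEM54, HEG1 and RHOC reached at most 4.47, 5.26 and 6.94 FPKM in the PEFs, where HIF1A had at least 72.6. MXRA5 was at 0 FPKM in piPSC7 and piPSC8.

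The 10 genes lie on 8 chromosomes, with PDGFRA and PDGFC on chromosome 8 and PDGFRB and ADM on chromosome 2. The nearest listed gene on each side of each member was read by position, 20 genes in all. The kinase genes beside the PDGF receptors were near 0, as KIT next to PDGFRA had at most 0.0604 FPKM and CSF1R next to PDGFRB at most 0.313 FPKM. Of the 20 neighbours, 10 were under 1 FPKM in all libraries, and of the 10 that could be tested 9 did not pass. PRKCE, beside EPAS1, was called higher at 1.49 (adjusted p = 0.00255) while EPAS1 itself was lower.

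Markers of the cell types were read beside these values. Of 15 fibroblast markers, 13 were called lower, and their summed level was 7958, 10064 and 7364 FPKM in PEF5, PEF7 and PEF8 and 620, 504 and 457 in piPSC5, piPSC7 and piPSC8, with VIM the highest by its mean over the 6 libraries and none at 0. In PEF7, PEF8 and piPSC8 other fibroblast markers exceeded VIM. With the replicate block, which pairs the lines, 11 of the 15 were called lower. The 10 genes were thus lower in the same libraries as fibroblast markers, whose part in their values was not tested. Of 12 mural cell markers, which often accompany PDGFRB, 4 of 7 tested were called lower (CSPG4, ACTA2, CNN1 and ANPEP). CSPG4 entered the test through the PEF libraries, with a piPSC mean of 0.367 FPKM. CNN1, at -4.43, lost its call with voom on recovered fragments at -5.81, with adjusted p from 0.00109 to 0.0545 over the alternatives. The summed level of the mural markers went from 218, 136 and 284 FPKM in the PEFs to 10.4, 26.9 and 5.77 in the piPSCs. ANPEP had the highest level of them in the PEFs and in piPSC5, whereas DES led in piPSC7 at 14.2 FPKM and in piPSC8 at 2.51 FPKM. DES was at 1.73 on the log2 scale and did not pass (adjusted p = 0.133). It was called higher at 2.61 without piPSC5 and stood at 0.76 without piPSC7. Its adjusted p ran from 0.0255 to 0.257 over the alternatives. The defining marker RGS5 was at or under 0.0593 FPKM in every library. The 10 endothelial markers listed summed to 11.2, 9.79 and 12.2 FPKM in PEF5, PEF7 and PEF8 and to at most 0.675 in the piPSCs, with ERG the highest by its mean over the libraries and SOX17 the highest in PEF8, ROBO4 and EMCN at 0 in the PEFs and CDH5 and SOX17 at 0 in the piPSCs. PECAM1 (adjusted p = 0.102), ERG (adjusted p = 0.0652) and SOX17 (adjusted p = 0.0997) were tested and did not pass. ERG was called lower without PEF8 (-3.11) and for lines 5 and 7 alone (-3.05), with adjusted p from 0.00138 to 0.187 over the alternatives, and SOX17 without PEF7 (-2.36), with adjusted p from 0.0132 to 0.255. Macrophage markers summed to between 10.5 and 22.9 FPKM in the PEFs and between 1.12 and 3.28 in the piPSCs, with CD163 at 0 in the piPSCs. CD14 led in the PEFs and was the 1 of 2 tested that was called lower, while CD68 led in the piPSCs and did not pass (adjusted p = 0.62). CD14 entered the test through the PEF libraries, with a piPSC mean of 0.195 FPKM. Chondrocyte markers reached 31 FPKM in piPSC5, almost all of it HAPLN1, with COMP at 0 in the piPSCs. HAPLN1 did not pass (log2 fold change 2.33, adjusted p = 0.086). It was called higher at 3.34 without piPSC7 and stood at 1.24 without piPSC5. Its adjusted p ran from 0.0143 to 0.23 over the alternatives. COMP did not pass (log2 fold change -1.47, adjusted p = 0.118) but was called lower with a pseudocount of 0.1 (-3.84) and with voom (-6.21), with adjusted p from 0.0203 to 0.212 over the alternatives. Of the 3 chondrocyte markers tested, SOX9 was called lower at -1.51 (adjusted p = 0.0342). It entered the test through the PEF libraries, with a piPSC mean of 0.0432 FPKM. The call was lost without PEF5 (-1.46), PEF7 (-1.06), piPSC5 (-1.57), piPSC7 (-1.48) or piPSC8 (-1.48). It was also lost with no filter on low values (-1.51) and with quantile normalization (-1.46). The adjusted p of SOX9 ran from 0.00689 to 0.0941 over the alternatives. Epithelial markers, of which KRT14 had the highest mean, summed to at most 4.92 FPKM. The pluripotency genes listed summed to 5.57, 2.89 and 9.05 FPKM in piPSC5, piPSC7 and piPSC8 and to at most 0.378 in the PEFs. SOX2 was the highest in piPSC5 and piPSC7 and LIN28B in piPSC8, with NANOG at 0 in the PEFs and UTF1 at 0 in the piPSCs. POU5F1, LIN28A and DPPA4 were not listed, so the sums leave them out. Fragments of the lentiviral Sox2 and those of the SOX2 gene cannot be told apart in values per gene. SOX2 (adjusted p = 0.0626) and LIN28B (adjusted p = 0.0667) were tested and did not pass. Both were called higher with a pseudocount of 0.1 and with voom, SOX2 also with quantile normalization (1.35), without piPSC8 (1.89) and for lines 5 and 7 alone (1.90), and LIN28B without piPSC7 (2.53). Over the alternatives the adjusted p ran from 0.00257 to 0.179 for SOX2 and from 0.00922 to 0.148 for LIN28B. NANOG, a defining gene of the labelled pluripotent state, was at or under 0.0919 FPKM in every library.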

How the data were processed

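RNA-seq values of 3 PEF and 3 piPSC lines were used, 1 library per line. The authors deposited FPKM values per gene. The submitters' processing notes name HISAT2 2.1.0, Bowtie2 2.2.3 and HTSeq 0.6.0 with the build Sscrofa11.1, without their roles. The annotation release is not given in the sources used here. Libraries were poly-A selected, made with a kit that does not mark strand, and read from both ends over 150 bp, so fragments of overlapping genes on opposite strands cannot be told apart. Fragments from the mouse feeder cells and those of the piPSCs cannot be told apart in values per gene. The values of 18007 of 18007 genes (100%) were whole multiples of 1 fragment, within 0.000402 fragments, given 1 length for each gene and 1 total for each library, which returned the fragments. Limits given for a count of 0 are those of 3 fragments per library and cover counting error only.

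The table gives 3375 genes an identifier but no symbol, of which 902 were named from a table of identifiers. Of 14028 symbols shared with RefSeq, 99.6% lie at overlapping positions on the same strand. Promoters are the 250 bases before the start of a gene, read from the Sscrofa11.1 genome.

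The groups were compared with limma 3.58.1 in R 4.3.3 on log2(FPKM + 1), using lmFit and a trended, non-robust eBayes. The 12428 genes whose mean reached 0.5 FPKM entered, and two-sided p-values were adjusted by Benjamini-Hochberg. This mean was taken over all libraries, so a gene could enter through a single group. The fit was tested on simulated data. A call needed a 2-fold change and an adjusted p below 0.05. Lines were not paired in this fit. The study names an unpaired test in its general statistics but set each piPSC line beside its own PEF line for expression, so pairing was run as an alternative. For 3 lines against 3 the smallest p of an exact permutation test is 0.1, so none was run. Other steps used Python 3.11.15, numpy 2.4.6, pandas 2.3.3 and matplotlib 3.10.9.

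Libraries of the same number come from the same cell line, so the numbers pair them. Deviations from the group means correlated across genes at 0.0921, 0.0946 and 0.08 for lines 5, 7 and 8, and at between -0.12 and 0.0553 for libraries of different lines.

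The members and lists were chosen with earlier results of these data known. The named genes are the 10 members, the other ligands, receptors, HIF subunits, HIF regulators and ADM or STC1 partners by role, genes from among the 3 largest called increases and 3 largest called decreases of each of 7 pathway lists, the marker with the highest mean in each of 7 marker lists and those at 0, and the 3 genes most like PDGFRA, PDGFRB, VEGFA and HIF1A. KIT, CSF1R and PRKCE were named from the neighbours, and DDX3Y, RGS5 and the called mural, macrophage and chondrocyte markers, the tested endothelial markers and those highest in single libraries singled out, after their values were seen. The alternatives were pairing by line as a replicate block, 0.1 as pseudocount, filters set to none or to a mean of 1 FPKM, quantile normalization, rescaling to the median ratio or to a sum of 1000000, no trend, voom on the recovered fragments, and leaving out each library. The fit of lines 5 and 7 alone was chosen after seeing the data.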

Additional observations from a re-analysis of the deposited data

Results flagged for a closer look

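PDGFC differed in direction between the lines as deposited. Its log2 difference, piPSC minus PEF, was -1.53 in line 5 and -2.12 in line 7 but 0.18 in line 8. After rescaling to equal sums the value in line 8 was -0.10, so its direction depended on scaling. With 1 library of each kind per line, the difference between lines was not tested.

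NRP2, a co-receptor of VEGFA and VEGFC, differed in direction over a wider range, at -2.91 in line 5, -2.73 in line 7 and 2.48 in line 8, and at 2.35 and 2.29 in line 8 under the median ratio and equal sum rescalings. This difference between lines was not tested either.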

How the results depend on the processing

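All 10 members remained lower in piPSCs under each of the 16 alternatives. HIF1A ranged from -2.09 to -1.45 on the log2 scale, VEGFA from -4.36 to -3.93, EPAS1 from -4.29 to -3.05, and PDGFC from -1.83 to -0.83. PDGFRB ranged from -5.25 to -4.28 and ADM from -4.77 to -3.37. The ranges of STC1 (-10.6 to -6.15), VEGFC (-7.76 to -4.75), ANGPT1 (-5.63 to -2.96) and PDGFRA (-6.33 to -4.59) reached far below the values of -6.26, -4.97, -3.20 and -5.07 given above. Their lowest values came with voom on recovered fragments, and the pseudocount of 0.1, which adds less to low values, also gave lower values than those of all other alternatives on the FPKM scale. The genes called numbered 4575, between 4053 and 4644 when a library was left out, and 4485 with the replicate block. With all libraries kept, the alternatives ran from 4277 with no filter on low values to 5233 with a pseudocount of 0.1. The pathway genes called higher numbered 5, between 4 and 6 without a library, and those called lower 34, between 31 and 39. With the replicate block, 5 were called higher and 37 lower, and none of the 38 named pathway genes tested lost or gained its call. The fibroblast markers called lower numbered 13, and 11 with the replicate block. Of 26 named pathway genes that were called, 20 kept the call under every alternative, and 6 (PDGFRL, ARNT, RAMP2, NCK1, GAB1 and PDK3) lost it under at least 1. NRP2, ARNT2, EGLN3 and STC2 gained a call when a single library was left out. No result changed direction together with its call. Depth limits the piPSC values of VEGFC, STC1 and ANGPT1, which rest on at most 42 fragments per library. It also limits those of PDGFRA in piPSC7 and piPSC8, on 30 and 7 fragments, and of ADM in piPSC8, on 28. Differences between single lines rest on 1 library each.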
